A study of Mus musculus with 2 samples.

Results

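The 600 regions described here are the ATAC-seq peaks of 2000 bp or wider, chosen by the width of the deposited interval from 113777 peaks on chromosomes 1 to 19, of which they are 0.527%. The cells were mouse embryonic stem cells (mESCs) of the line EHMT2-dTAG-mcherry, from a BL6/129 hybrid strain, in which the endogenous histone methyltransferase EHMT2 carries a degron tag. They received the vehicle DMSO for 24 h without the degrader, so that EHMT2 was present. They were grown on feeders of mouse embryonic fibroblasts, and the methods describe no sort before ATAC-seq. Each of the 2 independent clones gave 50000 cells, and the authors merged both clones before peak calling. There was no second condition, the values carry no spread between clones, and the peaks of 1 list are not replicates, so no test was made between sets of peaks. Because width selected these peaks, their width is not a finding.

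In ATAC-seq, the transposase Tn5 inserts adapters into DNA that nucleosomes leave exposed. Active promoters and enhancers usually appear as short exposed stretches. Many mammalian promoters lie in CpG islands, which are rich in G, C and the dinucleotide CpG and mostly free of DNA methylation, and the islands of genes for developmental regulators are often long and held by Polycomb proteins in mESCs. Outside genes, young mouse LINE-1 retrotransposons start with arrays of tandem repeat units called monomers, which act as their promoter.

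Every wide peak was placed in 1 of 3 classes by GENCODE vM21 genes and by the lower-case (repeat-masked) bases of the mm10 reference. A protein-coding start here is the annotated start of any transcript of a protein-coding gene, whether or not that transcript is itself coding. At least 1 such start lay inside 407 wide peaks (67.8%), compared with 13.3% of all peaks on these chromosomes. The exact binomial 95% interval of this share, 63.9% to 71.6%, treats the peaks as independent draws, which they are not. It serves only as a limit for the alternatives in the last section. A wider interval can reach a start that its summit is far from, but the summit itself was within 500 bp of a protein-coding start in 299 wide peaks (49.8%), compared with 13.6% of all peaks. The second class holds 54 wide peaks (9.0%) that were repeat-masked over at least 50% of their bases, which was the case for 20.5% of all peaks. The highest masked share of a wide peak over a protein-coding start was 38.4%. The other 139 peaks (23.2%) fell in neither class, and 21 of them covered the start of a gene of another type, such as a long noncoding RNA.

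The sequences below are single examples of the classes. The first is the 300 bp around the summit of the wide peak with the highest fold enrichment, at the start of Ptpn12, which encodes a tyrosine phosphatase. The second is the same window for Foxa2, a pioneer factor of endoderm and the node, which carries the widest peak of the germ layer list below. The last is the summit of the widest peak that was not repeat-masked and lay over 2000 bp from any gene start, which falls in a coding exon of Prag1. All are the plus strand of mm10, with each CpG in capitals.
Ptpn12, chr5:21056108-21056407: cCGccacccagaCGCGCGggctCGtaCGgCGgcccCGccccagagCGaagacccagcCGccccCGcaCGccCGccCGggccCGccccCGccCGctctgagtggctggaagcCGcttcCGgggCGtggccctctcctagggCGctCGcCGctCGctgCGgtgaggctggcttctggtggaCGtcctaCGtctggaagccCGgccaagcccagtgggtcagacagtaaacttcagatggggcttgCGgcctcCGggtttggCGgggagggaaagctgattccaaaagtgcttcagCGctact
Foxa2, chr2:148046236-148046535: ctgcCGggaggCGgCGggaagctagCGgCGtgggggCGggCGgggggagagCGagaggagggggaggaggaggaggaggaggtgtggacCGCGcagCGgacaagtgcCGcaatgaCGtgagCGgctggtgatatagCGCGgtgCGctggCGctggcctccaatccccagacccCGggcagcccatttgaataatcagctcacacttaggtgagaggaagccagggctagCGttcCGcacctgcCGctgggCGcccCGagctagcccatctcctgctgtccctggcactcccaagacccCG
Prag1 exon, chr8:36146419-36146718: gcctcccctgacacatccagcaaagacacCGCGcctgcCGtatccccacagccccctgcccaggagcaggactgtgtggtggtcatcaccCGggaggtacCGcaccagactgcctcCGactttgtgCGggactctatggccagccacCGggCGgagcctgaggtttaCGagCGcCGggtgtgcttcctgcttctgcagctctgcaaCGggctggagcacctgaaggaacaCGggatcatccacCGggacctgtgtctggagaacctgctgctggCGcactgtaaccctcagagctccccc
The Ptpn12 window had 32 CpG dinucleotides and 71% GC, and the Foxa2 window 25 and 68.7%. The Prag1 window had a GC content of 64.7% with 16 CpG dinucleotides, and is not typical of the peaks outside promoters and repeats, whose summit windows had a median GC content of 54.7%.

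In the repeat-masked class, most peaks were tandem arrays, in which the sequence matches itself again after a fixed shift. Neighbouring units from the widest array of each of the main unit lengths are printed next, on the plus strand of mm10, with bases that differ between both copies in capitals.
208-bp unit, copy 1, chr3:91099312-91099519: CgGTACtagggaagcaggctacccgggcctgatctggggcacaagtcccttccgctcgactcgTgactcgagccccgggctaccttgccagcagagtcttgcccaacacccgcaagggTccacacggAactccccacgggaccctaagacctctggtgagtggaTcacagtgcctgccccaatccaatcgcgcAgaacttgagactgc
208-bp unit, copy 2, chr3:91099520-91099727: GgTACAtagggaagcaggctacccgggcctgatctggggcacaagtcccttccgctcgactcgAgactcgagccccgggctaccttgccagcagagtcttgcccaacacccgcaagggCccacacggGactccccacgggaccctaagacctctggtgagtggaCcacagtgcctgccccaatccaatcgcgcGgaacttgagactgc
212-bp unit, copy 1, chr8:52303683-52303894: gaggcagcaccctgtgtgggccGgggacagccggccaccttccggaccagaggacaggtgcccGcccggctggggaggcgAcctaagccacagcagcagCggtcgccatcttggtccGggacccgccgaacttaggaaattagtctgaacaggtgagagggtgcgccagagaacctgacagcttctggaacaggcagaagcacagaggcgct
212-bp unit, copy 2, chr8:52303895-52304106: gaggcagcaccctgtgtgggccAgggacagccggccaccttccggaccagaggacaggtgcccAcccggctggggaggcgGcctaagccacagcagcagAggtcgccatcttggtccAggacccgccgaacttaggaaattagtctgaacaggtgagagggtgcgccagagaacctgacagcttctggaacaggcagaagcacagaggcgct
The copies of the 208-bp unit differed at 10 positions (95.2% identity) and those of the 212-bp unit at 5 positions (97.6% identity).

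Wide peaks formed the end of a continuous width distribution, with no break at the threshold. Their median width was 2185 bp, with quartiles of 2085.75 and 2393.25 bp, and 21 of them reached 3000 bp. Just inside the threshold lay the peaks over Fam110c and Man1a2 and a repeat-masked peak on chromosome 16, all of 2000 bp, with fold enrichments of 8.61, 6.57 and 6.46. Just outside lay a peak over Irf4 and, 1 bp narrower still, peaks over Dcbld1 and on chromosome 3, with fold enrichments of 5.93, 7.63 and 3.73. The plot of widths shows where each class lies along this tail.

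**Figure D1:**
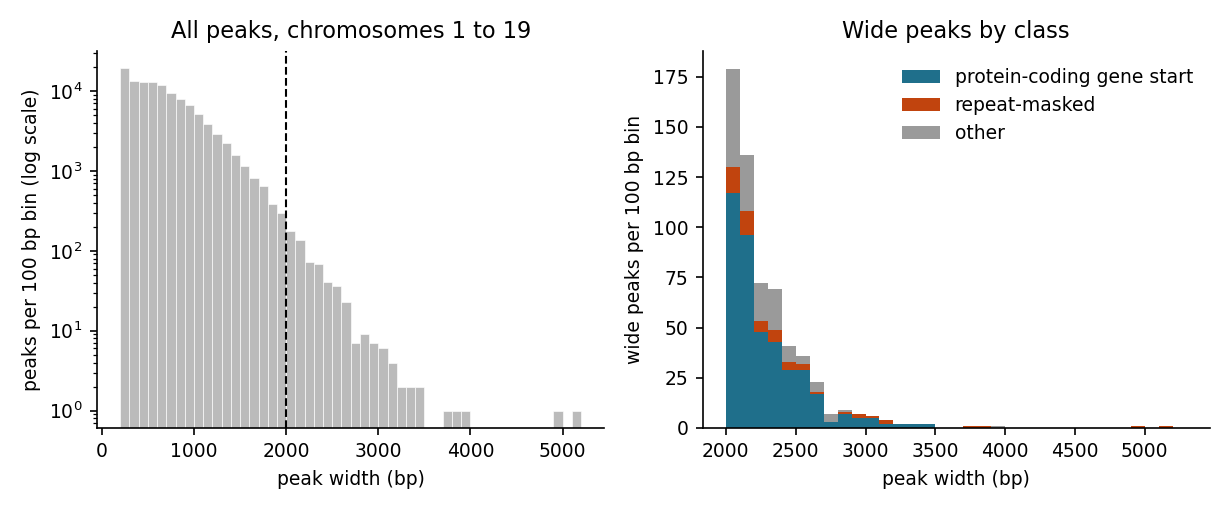
Number of peaks by width in bins of 100 bp. On the left are all 113777 peaks of chromosomes 1 to 19 on a log scale, with a dashed line at 2000 bp. On the right are the 600 wide peaks, stacked by class, where peaks over a protein-coding gene start hold most bins below 3500 bp and the 2 widest peaks are repeat-masked.

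Of the 10 widest peaks, 5 covered a protein-coding start, 4 were tandem arrays and 1 lay over a noncoding gene. The widest of all, chr8:52303683-52308850, spanned 5168 bp between genes and was 99.7% repeat-masked. It had 52 fragments over its summit (95% Poisson interval 38.8 to 68.2, which covers counting error only) and a fold enrichment of 2.81. Fold enrichment is the deposited MACS2 ratio of fragments over the summit to the local background, after adding 1 to each, and the number of fragments was calculated back from it and the deposited p-value. The next, chr3:91095143-91100062, spanned 4920 bp, was fully masked and had 33 fragments (22.7 to 46.3). The widest peak outside repeats, chr19:23132897-23136818, spanned 3922 bp and held the whole lincRNA gene 2410080I02Rik, 6993 bp from the nearest protein-coding start, that of Klf9. It had 35 fragments (24.4 to 48.7) and a fold enrichment of 3.44. The fold enrichments of all 3 were below 5.93, the median of wide peaks.

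The 5 protein-coding genes among the 10 widest peaks were Ppp2r3d, Erbb4, Arid1b, Gfra1 and Nrp1, with widths from 3273 to 3467 bp. Ppp2r3d, which encodes a regulatory subunit of the phosphatase PP2A, had the widest peak over a protein-coding start, 3467 bp with 101 fragments (82.3 to 123) and a fold enrichment of 5.59. Erbb4 and Gfra1 encode receptors for neuregulins and for GDNF, and their peaks had 25 and 19 fragments with fold enrichments of 5.06 and 4.88. Nrp1 encodes a semaphorin and VEGF co-receptor, and its peak of 3273 bp also covered the microRNA gene Mir1903 and had 35 fragments with a fold enrichment of 4.80. Arid1b encodes a subunit of the BAF chromatin remodeller, and its peak combined a GC content of 70.2% with 23 fragments and a fold enrichment of 4.35. Among these 5 peaks, only that of Ppp2r3d had over 35 fragments.

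The wide peaks of the highest fold enrichment were another group of promoters, and none of them was among the 10 widest. Ptpn12 was at 15.0 with 123 fragments (102 to 147) in a peak of 2135 bp. A peak of 2076 bp over the starts of Aamdc and Rsf1, the latter encoding a chromatin remodelling factor, followed at 14.1. The nuclear receptor coactivator gene Ncoa2 was at 14.0 with 142 fragments (120 to 167). Fold enrichments from 12.2 to 13.7 were found for Abtb2, Otud1, which encodes a deubiquitinase, Tdrd3, Top2b, which encodes topoisomerase II beta, Rtn4, and the pair Atp6v1a and Naa50. All 10 covered a protein-coding start, with GC contents between 60.3% and 71.7%.

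Over all 600 wide peaks, the fold enrichment had a median of 5.93 and ranged from 2.55 to 15.0, with a median of 3.95 for all peaks. Their summits held a median of 31 fragments, compared with 9 for all peaks, and 46 wide peaks (7.67%) had 10 or fewer fragments, compared with 58.8% of all peaks. A −log10 q-value of at least 10 was reached by 393 wide peaks (65.5%) and by 21.8% of all peaks. Median GC content was 61.1% compared with 49.5%, and the ratio of observed to expected CpG was 0.650 compared with 0.250. The median repeat-masked share was 9.66% compared with 14.2%. Of all bases in wide peaks, 11.6% were coding, 13% lay in untranslated exon parts, 6.21% in noncoding exons, 38.7% in introns and 30.6% between genes. For all peaks, the coding share was 4.61% and that between genes 44.4%.

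The share of peaks over a protein-coding start was larger in each wider bin listed next. Within the last bin, however, the 21 peaks of 3000 bp or wider had a share of only 61.9%. By bin, the share was 2.19% at widths under 500 bp, 12.9% from 500 bp, 35.8% from 1000 bp, 54.1% from 1500 bp, 67.0% from 2000 bp and 71.8% from 2500 bp. Each bin ends at the next, and the last has no upper limit. The closer comparison is therefore with the 7396 peaks of at least 1000 bp but under 2000 bp that also cover a protein-coding start, called mid-width promoter peaks below. Their median GC content of 61.2% and CpG ratio of 0.722 were close to the 62.1% and 0.730 of the 407 wide promoter peaks. The median number of fragments at the summit was nearly the same, 35 in wide promoter peaks and 34 in mid-width ones. Their median fold enrichment was lower, 6.41 compared with 8.44, and their median local background was higher, 4.42 compared with 3.16 fragments. Without a control sample, MACS2 takes the local background from windows around the summit, so that bases of the peak itself count towards it, and the part of this in the lower fold enrichment was not tested. The share of the peak in CpG-rich windows was nearly the same, with a median of 63.4% in wide and 63.2% in mid-width promoter peaks. CpG-rich runs were defined as overlapping 200-bp windows of at least 50% GC with a CpG ratio of at least 0.6. The longest run reached 1000 bp in 230 of the 407 wide promoter peaks (56.5%) and in 1878 of the 7396 mid-width peaks (25.4%), but a run cannot be longer than the peak, and width selected these peaks. The median run was 1050 bp in wide and 750 bp in mid-width promoter peaks, whose median widths were 2192 and 1277 bp.

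**Figure D2:**
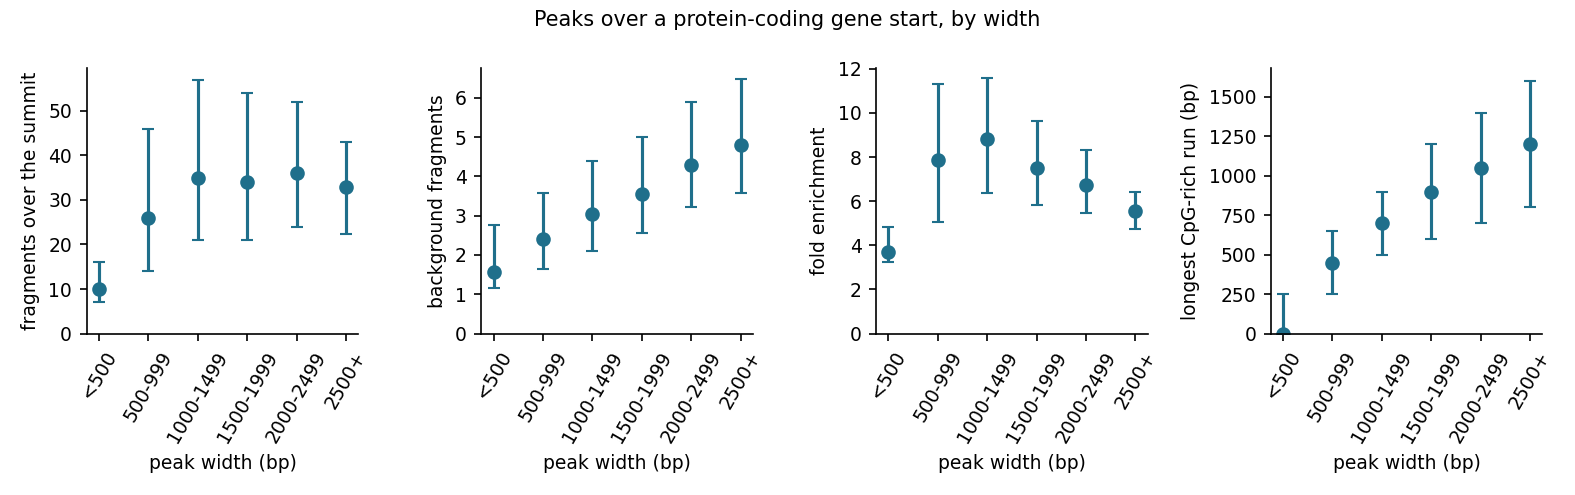
Peaks over a protein-coding gene start by peak width. Points are medians and bars the quartiles of the fragments over the summit, the local background in fragments, the fold enrichment and the longest CpG-rich run in bp. Fold enrichment has its highest median, 8.80, in the bin from 1000 to 1500 bp and a median of 5.56 from 2500 bp, while the medians of the background and of the CpG-rich run are higher in each wider bin.

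The position of the gene start inside the peak was examined for 318 wide peaks that covered the start of 1 protein-coding gene with the 5′ end of its gene record inside. The median wide peak reached 794.5 bp upstream of this end and 1457 bp downstream of it. In 234 of the 318 peaks (73.6%), more of the peak lay downstream than upstream, and the median downstream share was 64.4%. For 5295 mid-width promoter peaks, the median was 62.2%, so the asymmetry was not particular to wide peaks. The 5′ end of the record is the outermost annotated start of a gene, so its other starts inside the peak lie downstream. Measured from the start nearest to the summit instead, the median downstream share of wide peaks was 57.6%. The Arid1b peak had 88.2% of its width downstream and the Gfra1 peak 92.9%, whereas Nrp1 had 44.6% and Zic2 31.6%. The summit was within 500 bp of the 5′ end in 195 of the 318 wide peaks (61.3%) and in 90.3% of the mid-width ones. It lay more than 500 bp downstream in 85 wide peaks (26.7%), among them Ncoa2 (1466 bp), Gfra1 (1390 bp) and the mesendoderm regulator gene Eomes (1042 bp), compared with 6.91% of the mid-width peaks. A peak that is wider leaves more room for a distant summit.

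**Figure D3:**
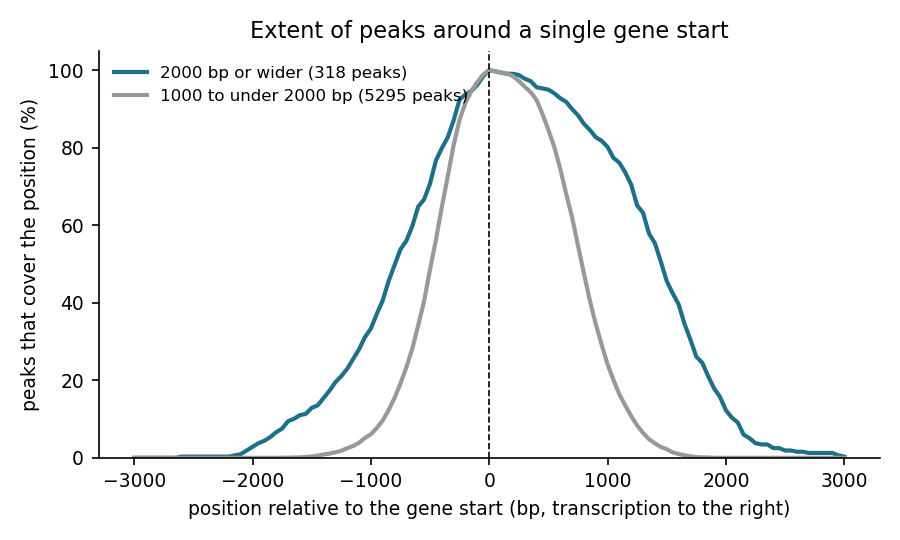
Share of peaks that cover each position around the 5′ end of a protein-coding gene record, with transcription running to the right, for 318 wide peaks and 5295 peaks of 1000 bp to under 2000 bp. Both curves are wider on the downstream side, and the wide peaks reach a median of 1457 bp downstream and 794.5 bp upstream.

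Wide promoter peaks held 2 or more different annotated starts of their gene in 251 of the 380 peaks with 1 protein-coding gene (66.1%), compared with 70.9% of mid-width promoter peaks, and the median was 2 in both. These starts were spread over at least 500 bp in 114 of the 380 (30.0%), compared with 14.2% of the mid-width peaks, which have less room for distant starts. Relative to the width, the summit was more often near an edge. It fell in the outermost 20% of the peak at either side in 191 of the 600 wide peaks (31.8%), compared with 14% of the mid-width promoter peaks and 12% of all peaks. In bp, its median distance to the nearest edge was larger, 593 bp compared with 447 bp and 174 bp. Counted along the plus strand of mm10 and not along transcription, the summit was at 96.1% of the Erbb4 peak and at 8.89% of the Arid1b peak. Along transcription, both summits lay nearer the upstream edge. They were 638 and 98 bp upstream of the 5′ end, in peaks that reached 771 and 393 bp upstream. Neighbouring peaks within 500 bp were rare, being found for 24 wide peaks (4.0%) and 5.0% of all peaks.

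Wide peaks were not mainly shared promoters. The starts of 2 or more protein-coding genes lay inside 27 wide peaks (4.50% of the 600 and 6.63% of the 407 over a start), compared with 1.12% of all peaks and 10.2% of mid-width promoter peaks. In 24 of the 27 (88.9%) the genes lay on both strands, near the 90.8% of such mid-width promoter peaks (684 of 753). Examples are Cbx3, encoding the heterochromatin protein HP1 gamma, with Hnrnpa2b1, encoding an RNA-binding protein, which shared a peak of 2509 bp with a fold enrichment of 9.49. A peak of 2242 bp covered the starts of the zinc finger genes Zbtb1 and Zbtb25 with a fold enrichment of 4.87. The starts of 3 protein-coding genes lay inside 2 peaks. The first, of 2454 bp, covered Snrpn, Snurf and Gm38393 in the imprinted Prader-Willi region, where the transcripts share their upstream exons. The second, of 2089 bp, covered Ric8a, which encodes a chaperone of G protein alpha subunits, the SNARE gene Bet1l and Gm45785.

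Among 20807 protein-coding genes on chromosomes 1 to 19, 14111 (67.8%) had any peak over a start and 436 (2.10%) had a wide one. Of those with any peak, 3.09% had a wide one. Of 68 transcription factor genes of the germ layers, 11 (16.2%) had a wide peak over a start, in 11 separate peaks. The widest were Foxa2 (3192 bp), the neural plate factor gene Zic2 (3021 bp), Sox11 (2683 bp), Zic5 (2660 bp) and the mesoderm factor gene Foxc1 (2634 bp). The others were Eomes, Sox9, Neurog2, T, Sox17 and Nkx2-2, between 2112 and 2266 bp. Zic2 had 65 fragments over its summit (50.2 to 82.8), and Foxa2 had 29 (19.4 to 41.6) with a fold enrichment of 4.02. The GC content of the 5 widest lay between 62.0% and 68.8%, with CpG-rich runs from 1300 bp in Foxa2 to 1900 bp in Foxc1. Lists differ in how many genes have any peak, and 56 of these 68 had one.

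The pluripotency list had 3 wide peaks among 34 genes (8.82%), over Tdgf1 (2402 bp), Lin28a (2358 bp) and Mycn (2218 bp). Tdgf1 encodes a Nodal co-receptor, Lin28a an inhibitor of let-7 maturation and Mycn a MYC family factor, and their peaks had 52, 13 and 59 fragments. Of 53 signal-responsive genes, 4 (7.55%) had a wide peak, namely the transcriptional repressor gene Bhlhe40, the FGF pathway inhibitor genes Spry4 and Spred1 and the WNT feedback inhibitor gene Axin2. Axin2 had the highest fold enrichment of these, 11.9 with 102 fragments. Among 21 genes for H3K9 methylation and EHMT2 partners, 2 (9.52%) had a wide peak, Cbx3 and Trim28, the latter encoding the co-repressor KAP1, at 2165 bp and a fold enrichment of 7.53. Of 30 splicing and hnRNP factor genes, 3 had a wide peak, over Hnrnpa2b1, Hnrnpu (2471 bp) and Srsf6 (2048 bp, fold enrichment 11.7). Any peak over a start was found for 33 of the 34 pluripotency genes and 51 of the 53 signal-responsive genes. It was also found for all 21 genes for H3K9 methylation and EHMT2 partners and all 30 splicing genes. For all protein-coding genes this share was 67.8%, and a wide peak was found for 2.10%, or 3.09% of those with any peak. With lists this short, a single gene moves the share by several percent.

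For imprinted genes, 4 of 32 (12.5%) had a start inside 3 wide peaks, and 28 of the 32 had any peak. These were the Snrpn and Snurf peak, a peak of 2141 bp over Gnas, and a peak of 2086 bp over the start of Airn, the antisense RNA of the Igf2r locus. They were low, with fold enrichments of 4.80, 3.82 and 3.51 and 21, 18 and 7 fragments. The cells came from a hybrid strain, and the list does not separate alleles. Snhg18 (2235 bp) was the only one of 23 snoRNA host and nuclear RNA genes, of which 20 had any peak. No wide peak covered a start of the 81 genes for cytosolic ribosomal proteins, of which 79 had a peak with a median width of 818 bp, or of the 67 replication-dependent histone genes, of which 55 had a peak with a median width of 1060 bp. The 39 Hox genes also had no wide peak, although 23 had a peak, with a median width of 1438 bp and the widest at 1866 bp. For comparison, this median was 1069 bp for all protein-coding genes with a peak and 1397.5 bp for the germ layer factors. The 24 microRNA genes and 33 genes of the 2-cell stage on the lists had no wide peak either, but only 2 and 1 of them had any peak. Other microRNA genes did, since 7 lay wholly inside a wide peak. At the background share of 2.10%, which is of protein-coding genes, each of these 5 lists would have fewer than 2 genes with a wide peak. The counts of 0 therefore lie near the background, and no background was calculated for microRNA genes.

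**Figure D4:**
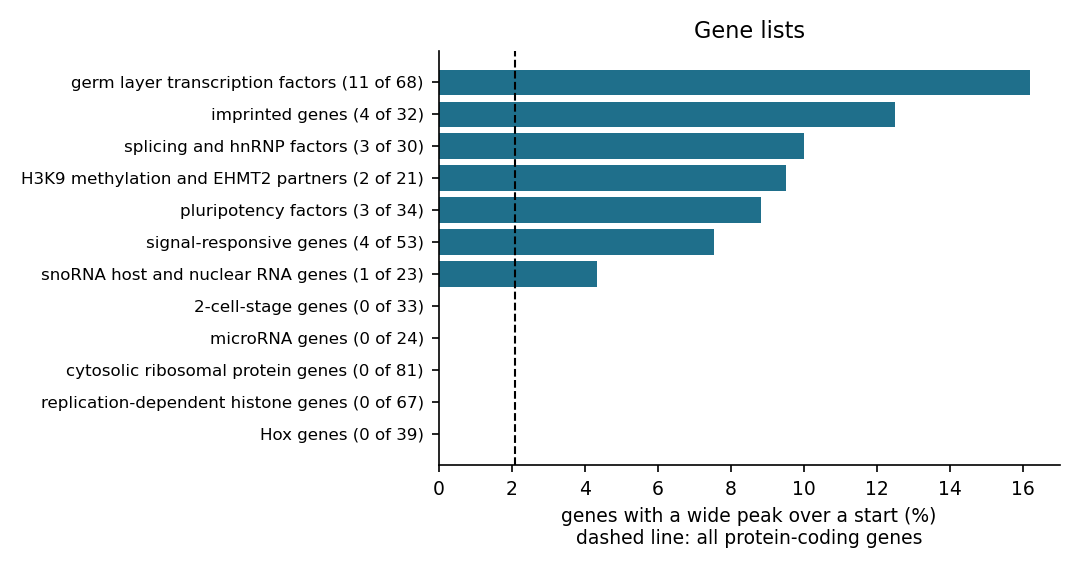
Percent of the genes of each list with a peak of 2000 bp or wider over an annotated start, with the number of genes in parentheses. The dashed line marks 2.10%, the share of all protein-coding genes. Germ layer transcription factors have the highest share, 16.2%, and 5 lists have none.

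Some gene families were looked up after the names of the members had been seen. Forkhead genes had wide peaks at 7 of 43 (Foxa2, Foxb1, Foxc1, Foxd1, Foxl2, Foxn2 and Foxn3), Sox genes at 4 of 18 and potassium channel genes at 9 of 92. Of the 9 genes for Hs3st and Hs6st enzymes, which add sulfate to heparan sulfate, Hs3st2, Hs3st4, Hs3st5 and Hs6st3 had one. Of 358 Zfp genes 4 had one, and none of 1128 olfactory receptor genes did, of which only 24 had any peak. For all protein-coding genes the share was 2.10%, or 3.09% of those with any peak, so that none of 24 is near the background. Families chosen this way show no more than their counts. As to the cell type, 5 of 6 mESC marker genes had a peak over a start, with none at Sox2, but so did all 5 fibroblast markers, and that of Twist2 was wide (2325 bp). Any peak over a start was found for 67.8% of all protein-coding genes. With so few markers, neither count is far from that share. The 5 fibroblast markers had 11 to 23 fragments over the summit and the mESC markers had 12 at Esrrb, 17 at Pou5f1, 40 at Nanog and 44 at Klf4, with Zfp42 higher still. What the fibroblast feeders contributed to the wide peaks was not tested.

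A wide peak contained 21 annotated genes entirely, in 20 peaks. Of these, 7 were microRNA genes and 4 were protein-coding. The protein-coding genes were short, Gm10775 (1288 bp) in a peak of 2831 bp, C530025M09Rik (690 bp) in the Syndig1 peak, Gm20403 (372 bp) in the Baz1a peak and Gm10840 (309 bp) in the Limd2 peak. The microRNA genes included Mir1903 in the Nrp1 peak, Mir707 in the peak over Akt1s1 and Tbc1d17, and Mir124a-3, the source of a neuronal microRNA, in a peak of 2229 bp with a fold enrichment of 3.27. A peak of 2722 bp on chromosome 12 contained 2 snRNA genes, Gm24859 and Gm23296, and was among the higher peaks without a protein-coding start, with 62 fragments (47.5 to 79.5) and a fold enrichment of 8.87. RNA output of these genes was not measured here.

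The 139 wide peaks outside promoters and repeats had a median fold enrichment of 5.11 and 18 fragments over the summit. Their GC content of 52.0% and CpG ratio of 0.313 were below those of wide promoter peaks, and 66 of them (47.5%) had no CpG-rich window. Of the 118 without any gene start, 52 had their summit in an intron, 49 between genes, 8 in a coding exon, 7 in an untranslated exon part and 2 in a noncoding exon. The distance to any annotated start was over 2000 bp for 88 of the 139. The widest of these 88 was the Prag1 peak of 2821 bp, whose summit lay in a coding exon 51708 bp from the nearest protein-coding start, with 18 fragments (10.7 to 28.4). Next were a peak of 2752 bp in an exon of the noncoding gene 3930402G23Rik and a peak of 2733 bp in an intron of Elmsan1, with fold enrichments of 3.91 and 4.55. A peak of 2635 bp in an intron of Nuggc had 51.6% GC but a CpG ratio of 0.0347, the lowest of the 139. By contrast, 26 of the 139 had a CpG ratio of at least 0.6, and their median GC content was 61.9%, near that of promoters.

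In the repeat-masked class, 44 of 54 peaks were tandem arrays with a unit of 200 to 220 bp, on 17 chromosomes. These were 7.33% of wide peaks, compared with 3.26% of all peaks of 600 bp or wider, 5.70% from 1500 to under 2000 bp and 1.87% from 600 to under 1000 bp. All 44 were in introns or between genes, with 14 in introns, and their summits lay a median of 122366 bp from a protein-coding start. A 208-bp unit was found in 19 and a 212-bp unit in 22. Shifting the sequence by its unit gave a mean identity of 93.2% in the 208-bp arrays and 86.3% in the 212-bp arrays, compared with 26.9% and 27.3% at shifts of 20 to 150 bp. After 2 units, the identity was still 91.0% and 83.6%. The peaks spanned between 9.43 and 24.4 units, with the largest number in the peak of 5168 bp described above. Repeat families were not annotated in the data used here, so the arrays were not assigned to a family.

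**Figure D5:**
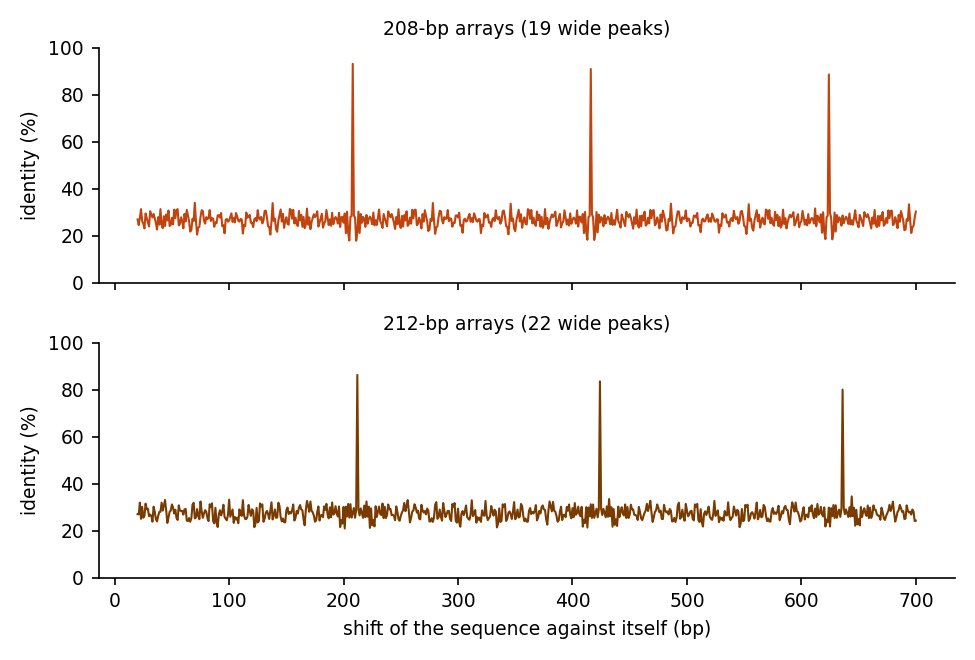
Mean percent identity of each array with itself after a shift of 20 to 700 bp, for the 19 wide peaks with a 208-bp unit and the 22 with a 212-bp unit. Identity is near 27% at most shifts and has sharp maxima at 1, 2 and 3 unit lengths.

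The 208-bp and 212-bp arrays had different numbers of fragments over the summit. The 208-bp arrays had between 23 and 41, with a median of 32, and the 212-bp arrays between 43 and 77, with a median of 52. At their nearest, the groups had 41 and 43 fragments, which is closer than the counting error of 1 array. Local background also differed, with medians of 5.20 and 8.37 fragments, and the median fold enrichments were close, 5.27 and 5.71. GC content was 62.5% and 64.0%. In 43 of the 44 arrays, the 300 bp around the summit matched at least 1791 other places in the genome at 90% identity or more over at least 50% of the length, other units of the same array included. In the remaining array, on chromosome 8, the summit window had no other match and its identity at the shift was the lowest of the 212-bp arrays, 65.7%. Reads that fit several places equally well were written to 1 of them at random, so the fragments of an array can come from many copies and the height of any single copy is not known. By contrast, the summit window had no other match in 396 of the 407 wide promoter peaks (97.3%).

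Of the 10 repeat-masked peaks that were not such arrays, the highest was chr17:17738609-17740655, between genes, with 70 fragments (54.6 to 88.4) and a fold enrichment of 10.2. Its summit window had 44 other matches. A fully masked peak of 2096 bp near Olfr1056 had 50 fragments, a fold enrichment of 8.82 and 282 other matches. A fully masked peak of 2123 bp in introns of Klhdc4 and Gm20388 was 98.2% identical to itself after a shift of 153 bp, with 51 fragments and 110 other matches. A peak of 2405 bp in an intron of 4930444P10Rik held no CpG and 7 fragments (2.81 to 14.4).

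Short motifs in the 300 bp around the summit followed the classes. On either strand, the GC box GGGCGG was present in 68.6% of wide promoter peaks, 35.2% of repeat-masked and 29.5% of other wide peaks, and in 19.2% of all peaks. Mid-width promoter peaks had it in 69.9%. The CTCF core AGGGGGC was present in 21.4% of wide promoter peaks, compared with 18.7% of mid-width promoter peaks and 7.92% of all peaks. The ETS site CCGGAAG was found in 6.63% of wide promoter peaks and 12.7% of mid-width promoter peaks, and the CREB site TGACGTCA in 0.737% and 2.72%. The AP-1 site TGANTCA was found in 3.44% of wide promoter peaks, in 8.63% of the other wide peaks and in no repeat-masked one, compared with 9.71% of all peaks. The SOX site ACAANG was found in 26% of wide promoter peaks, 25.9% of repeat-masked and 49.6% of other wide peaks, compared with 47.2% of all peaks. The octamer ATGCAAAT was found in 1.67% of all 600 wide peaks and 2.99% of all peaks, the TATA box TATAAA in 6.33% and 11.7%, and the E-box CACGTG in 8.17% and 5.17%. The NRF1 site GCATGCGC was present in 1.97% of wide promoter peaks, compared with 4.22% of mid-width promoter peaks and 1.10% of all peaks, and the ESRRB site TCAAGGTCA in 0.500% of wide peaks and 1.06% of all peaks. The GC content differs between these sets, and a match is not a bound site.

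In the arrays, motifs went with the unit, as is visible in the sequences above except that the GC box is seen only in the first printed copy of the 212-bp unit. CCAAT was present in the summit window of all 19 arrays of the 208-bp unit and in none of the 22 of the 212-bp unit. The YY1 core AAGATGG was present in 21 of the 22 windows of the 212-bp unit and in none of those of the 208-bp unit, and the ETS site CCGGAAG and the GC box were each present in 17 of 22 and in none of the 19. Over all peaks, CCAAT was found in 36% of windows, AAGATGG in 8.78%, the ETS site in 4.88% and the GC box in 19.2%. None of 19 is therefore near the share over all peaks for the ETS site. Since the arrays are copies of related sequence, their windows are not independent.

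Wide peaks were found on every chromosome from 1 to 19, with 9 on chromosome 19 and 49 on chromosome 2. They made up between 0.368% of the peaks on chromosome 1 and 0.760% of those on chromosome 17. Chromosome 8 had the most peaks per Mb, 71.8 compared with 38.4 to 52.0 elsewhere, but its 41 wide peaks were 0.455% of its peaks.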

How the data were processed

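ATAC-seq was performed on 2 clones of EHMT2-dTAG mESCs with 50000 cells each after 24 h of DMSO. Per the labels and the methods of the study, the authors aligned the reads to mm10 with STAR 2.7.10, wrote reads with several equally good locations to 1 of them at random, removed duplicates with Picard 2.26.0, excluded high signal regions listed by ENCODE, corrected fragment ends for the Tn5 offset and called peaks with MACS2 2.2.6 on the merged clones. The deposited list gives for each peak the fold enrichment, a ratio computed by the authors, the deposited −log10 p-value and −log10 q-value of the summit, and a deposited score that was not used. Library totals were not analysed here.

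The number of fragments over each summit was calculated from the fold and the −log10 p-value by the Poisson formula of MACS2, and came out whole (within 0.001 in −log10 p) for 113776 of 113777 peaks. It covers counting error only, given as exact 95% intervals. Gene starts came from GENCODE vM21, sequence and soft-masking from the RefSeq copy of GRCm38 (mm10). Tandem arrays were peaks of at least 600 bp with at least 60% identity to themselves at their best shift between 150 and 260 bp, that shift lying between 200 and 220 bp. Summit windows were searched with BLAST 2.17.0. On simulated data, 100% of 1997 fragment numbers and 100% of 200 arrays were recovered, and 0 of 200 unrelated sequences were called arrays. The simulated peaks used the same formula that was then inverted, so their recovery checks the calculation only. The simulated arrays had no insertions or deletions and the unrelated sequences were random bases. These rates therefore do not give the error of the array call on real repeats. Calculations used Python 3.11.15, NumPy 2.4.6, pandas 2.3.3, SciPy 1.17.1 and matplotlib 3.10.9.

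The peaks, gene lists and settings were chosen with earlier results of these data known. Named peaks were the 10 widest, the 10 of highest fold enrichment, those over 3 protein-coding starts, the widest far from starts, those with a whole protein-coding gene, up to 5 per gene list by width, 3 on each side of the width threshold and the 5 most repeat-masked. Of the 10 of highest fold enrichment, 1 is not reported here by itself. Other peaks named singly were picked after their values were seen. Alternatives changed the width threshold, peak joining, the definition of a gene start, the summit window, the q-value and the chromosomes used.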

Additional observations from a re-analysis of the deposited data

Results flagged for a closer look

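These peaks lie outside chromosomes 1 to 19 and so outside the comparisons above. Chromosome X had 28 peaks of 2000 bp or wider among 2991 (0.936%), of which 21 covered a protein-coding gene start and 4 were tandem arrays. The mitochondrial genome had 3 peaks, of which 2 were 2000 bp or wider. A sequence named dm6_chrX, as in a fruit fly assembly, had 2 peaks in the list, none of them wide.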

How the results depend on the processing

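Of 40 alternatives tried over 8 results, 26 left the value within the limits used here and 14 did not. Those limits were 1.5 times the value for counts and medians and the 95% binomial interval for percentages. The medians of GC content, masked share, fold enrichment and downstream share stayed within 1.5 times under every alternative run. They ranged from 58.3% to 63.5%, from 7.67% to 14.2%, from 4.35 to 6.46 and from 57.6% to 71.4%. This limit is wide, since the medians of all peaks for GC content (49.5%) and masked share (14.2%) also lie within it. Staying within it therefore does not show that a difference from all peaks was kept. The number of wide peaks was 3900 with a width of at least 1500 bp, 21 with 3000 bp, 393 with a −log10 q-value of at least 10 and 1155 after joining peaks less than 500 bp apart. The percent over a protein-coding start was 56.2 from 1500 bp, 61.9 from 3000 bp, 60.9 after joining, 57.5 with the end of the gene record as the start and 49.8 with the summit within 500 bp of a start. The percent over 2 or more protein-coding starts was 0 from 3000 bp (21 peaks) and 7.33 with lincRNA genes added. The number of genes wholly inside was 141 from 1500 bp, 2 from 3000 bp and 4 for protein-coding genes only. These changes follow from the definitions, which change the peaks or genes counted. No paired analysis was possible because the list holds 1 group with both clones merged, and no clone could be left out. With no values per clone, no difference between clones can be given, and the depth limits peaks of few fragments.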
